A study of Mus musculus with 14 samples.

Results

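The genes examined were 35 genes of antigen presentation, taken by symbol from a written list of major histocompatibility complex (MHC) class I and class II chains, their loading machinery and their regulators, out of 49939 RefSeq genes of the mouse assembly GRCm38.p6. Genes that shared a peak were counted once as a locus, which left 30 loci. Histone H3 lysine 9 crotonylation (H3K9cr) and acetylation (H3K9ac) were measured by ChIP-seq, in which an antibody pulls down chromatin that carries the mark. Both marks are enriched at the start sites of active genes. The 14 peak lists came from 8 H3K9cr and 6 H3K9ac libraries of whole kidney. The WT groups were wild-type mice, and the ACSS2-/- groups were mice in which CRISPR/Cas9 removed the acyl-CoA synthetase ACSS2 from every cell of the body, so that the deletion was not confined to kidney or to immune cells. UUO kidneys came from mice with unilateral ureteric obstruction, a model of fibrosis in which the left ureter is tied and cut, and control kidneys from mice without obstruction. The methods describe C57BL/6J mice aged 6 to 8 weeks and littermate controls, and give no duration of obstruction for these libraries. H3K9cr had 2 libraries in each of WT control, ACSS2-/- control, WT UUO and ACSS2-/- UUO. For H3K9ac there were 2 libraries per UUO group, while WT control and ACSS2-/- control had 1 each, replicate 2 in both, and their replicate 1 was not analysed here. The labels number the libraries of a group and do not say that they came from separate animals, so the p-values below measure only the spread between these libraries. The paper describes H3K9ac ChIP-seq on the samples used for H3K9cr, so libraries of the marks can share an animal.

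MHC class II molecules are made of an alpha and a beta chain that assemble on the invariant chain Cd74 and carry peptides from endocytosed protein to the surface of macrophages, dendritic cells and B cells. MHC class I molecules carry peptides from inside the cell, cut by the immunoproteasome and pumped by the Tap transporter, and sit on nearly every nucleated cell together with B2m. Ciita is the master coactivator of class II genes and Nlrc5 that of class I genes. Neither binds DNA itself, and both work through the factor RFX (Rfx5, Rfxap and Rfxank), CREB and NF-Y, which bind a conserved row of short elements upstream of the start site. In injured kidney, class II is known both from infiltrating immune cells and from tubule cells exposed to interferon gamma.

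The value given for a gene is the number of bases under peaks within 3 kb of either of its RefSeq ends, at most 12000 bp. The lists hold positions without height, strand or depth, so a larger value means that more of these bases passed the peak caller's threshold. An H3K9cr list held between 27530 and 45014 peaks over 29.4 to 64.6 Mb, and an H3K9ac list between 15988 and 32760 peaks over 17.7 to 51.1 Mb. Peaks lay on chromosome Y in 8 of the 14 lists, and the H3K9cr UUO libraries of replicate 1 had them in both genotypes while those of replicate 2 had none. In 4 lists the mouse number inside the peak names differed from the label. At Acss2 itself, bases under peaks lay between 799 and 2719 bp in H3K9cr and between 760 and 2823 bp in H3K9ac libraries, with peaks in every ACSS2-/- list. A histone mark there does not check the deletion, and no other measurement of it was used here.

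The short elements can be read in the promoters, which RefSeq gives for GRCm38.p6 as 250 bases before to 50 bases after the start site. Such a promoter was found for 27 of the 35 genes. H2-Ab1, Cd74, Ciita, Tap2, Tapbpl, Nlrc5, Cd1d1 and Rfxap had no entry. Both strands were searched for ATTGG, the Y box core that NF-Y binds, and for GCAAC, part of an RFX site, in 32851 promoters. ATTGG was present in 22 of the 27 and in 37.4% of all promoters, and GCAAC in 12 of the 27 and in 35.2% of all promoters. GCAAC followed on the same strand by ATTGG, with 25 to 40 bases from the first letter of one to the first letter of the other, was present in 128 promoters or 0.39%. These included H2-Aa, H2-Eb1, H2-Oa and H2-Ob, whose spacings were 33, 32, 33 and 30 bases, and no other of the 27. The spacing was chosen after these promoters were seen, so the count is a description.

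The 120 bases before the start site are shown for these 4 genes, and for H2-DMb1 and H2-DMb2, class II loading genes that the comparisons below turn on. GCAAC and ATTGG on the strand shown are in capitals. The positions are H2-Aa (chr17:34287824-34287943, minus strand), H2-Eb1 (chr17:34305747-34305866, plus strand), H2-Oa (chr17:34092259-34092378, plus strand), H2-Ob (chr17:34238785-34238904, plus strand), H2-DMb1 (chr17:34153071-34153190, plus strand) and H2-DMb2 (chr17:34145129-34145248, plus strand), all in GRCm38.p6.
H2-Aa: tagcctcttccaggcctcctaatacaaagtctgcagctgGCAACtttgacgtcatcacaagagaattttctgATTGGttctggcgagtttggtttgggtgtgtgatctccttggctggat
H2-Eb1: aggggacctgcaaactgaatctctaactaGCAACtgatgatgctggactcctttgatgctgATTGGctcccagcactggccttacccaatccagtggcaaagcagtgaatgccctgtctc
H2-Oa: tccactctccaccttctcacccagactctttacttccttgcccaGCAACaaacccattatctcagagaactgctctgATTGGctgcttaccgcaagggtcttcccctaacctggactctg
H2-Ob: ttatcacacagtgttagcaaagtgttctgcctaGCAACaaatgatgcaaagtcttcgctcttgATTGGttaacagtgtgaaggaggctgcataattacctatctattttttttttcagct
H2-DMb1: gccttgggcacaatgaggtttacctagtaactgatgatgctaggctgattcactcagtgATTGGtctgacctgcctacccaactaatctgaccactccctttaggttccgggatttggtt
H2-DMb2: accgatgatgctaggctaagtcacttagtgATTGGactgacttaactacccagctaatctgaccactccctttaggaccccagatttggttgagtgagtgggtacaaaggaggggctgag
The first 4 sequences were selected by the order of these elements, so their common order is not a finding. The H2-DMb1 and H2-DMb2 sequences held ATTGG without an exact GCAAC. Inexact matches were not searched for, so this does not show that an RFX site is absent. The H2-DMb2 entry starts inside the RefSeq gene, downstream of the annotated gene start.

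A further element was found in class I and class II promoters. GGGNNTTCC, a site of the kappaB type with N for any base, was present on either strand in 7 of the 27 promoters and in 5.82% of all promoters. The 7 were H2-Aa, H2-Oa, H2-K1, H2-D1, H2-Q4, H2-Q6 and H2-Q7. TGACG, part of a cyclic AMP response element, was present in 12 of the 27 and in 20.8% of all. Of the interferon elements, GAAANNGAA was present in 3 of the 27 (H2-T23, B2m and Erap1) against 8.56% of all, and TTCNNNGAA in 3 of the 27 (H2-DMb2, H2-M3 and Psmb8) against 8.30% of all. The letters of some of these motifs can overlap each other. The bases from 220 to 101 before the start are shown for 3 class I genes whose H3K9cr differed below, with the kappaB match in capitals. The positions are H2-Q6 (chr17:35424630-35424749, plus strand), H2-Q7 (chr17:35438935-35439054, plus strand) and H2-D1 (chr17:35262874-35262993, plus strand).
H2-Q6: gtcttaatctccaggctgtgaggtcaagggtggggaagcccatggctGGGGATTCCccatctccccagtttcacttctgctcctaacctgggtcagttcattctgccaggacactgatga
H2-Q7: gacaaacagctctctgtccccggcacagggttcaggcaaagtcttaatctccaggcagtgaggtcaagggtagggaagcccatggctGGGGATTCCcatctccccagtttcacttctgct
H2-D1: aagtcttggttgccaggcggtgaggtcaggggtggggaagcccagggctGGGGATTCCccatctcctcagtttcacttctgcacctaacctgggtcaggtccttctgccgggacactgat
H2-Q6 and H2-Q7 shared a run of 67 identical bases in their promoters, and H2-K1 and H2-D1 one of 47. Reads from such copies can be dropped for low mapping quality or placed at the wrong copy, so values of single class I genes are uncertain.

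Peaks at these genes were common in all kidneys. Between 29 and 34 of the 35 genes had a peak within 3 kb of an end in a library, and 26 had one in all 14. Of the 27 promoters, 17 were touched by a peak in all 14 libraries, taking the first RefSeq entry of each gene. H2-DMa was among the 17, but its first entry overlaps the gene Brd2, and its second entry (chr17:34125268-34125567) had 0 covered bases in every library. H2-Oa, which with H2-Ob forms the class II modulator DO of B cells, had no H3K9cr peak in any library and H3K9ac peaks of 306 and 1182 bp in the ACSS2-/- UUO libraries alone. Another 9 promoters were touched in some libraries only, 4 of them of class II genes. The H2-Aa promoter was touched by H3K9cr in 2 of 4 UUO and in 0 of 4 control libraries, the H2-Eb1 promoter in 3 of 4 and 0 of 4, the H2-DMb2 promoter in 3 of 4 and 0 of 4, and the H2-Ob promoter in 0 of 4 and 1 of 4. By contrast the H2-DMb1 promoter was touched in all 8 H3K9cr libraries.

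Neighbouring genes bear on several values. On chromosome 17, where 20 of the 35 genes lie, 7 genes shared peaks in 2 loci, H2-DMa with H2-DMb1 and H2-DMb2, and Psmb8 and Psmb9 with Tap1 and Tap2. A single peak joined Tap1 and Psmb9, and Tap1 and Psmb8, in all 14 libraries, and H2-DMb1 and H2-DMb2 in all 14. The windows of Cd74, Ciita, Ifi30, Tapbp, Tapbpl, Rfxank, Calr, Canx, Pdia3, Erap1, Psmb10 and Rfxap also held an end of another gene, such as Tcof1 for Cd74, Dexi for Ciita and Cd27 for Tapbpl. Of the 12000 bp at H2-DMa, 6000 bp lay in Brd2, a chromatin reader whose bases were covered over 4369 to 6000 bp in every library. These 6000 bp are the whole window at the annotated start of H2-DMa, so the bases outside Brd2 lie around its other end. The Rfx5 promoter entry, and the start sites of both H2-DMa entries, lie outside the bases scored for these genes.

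**Figure D1:**
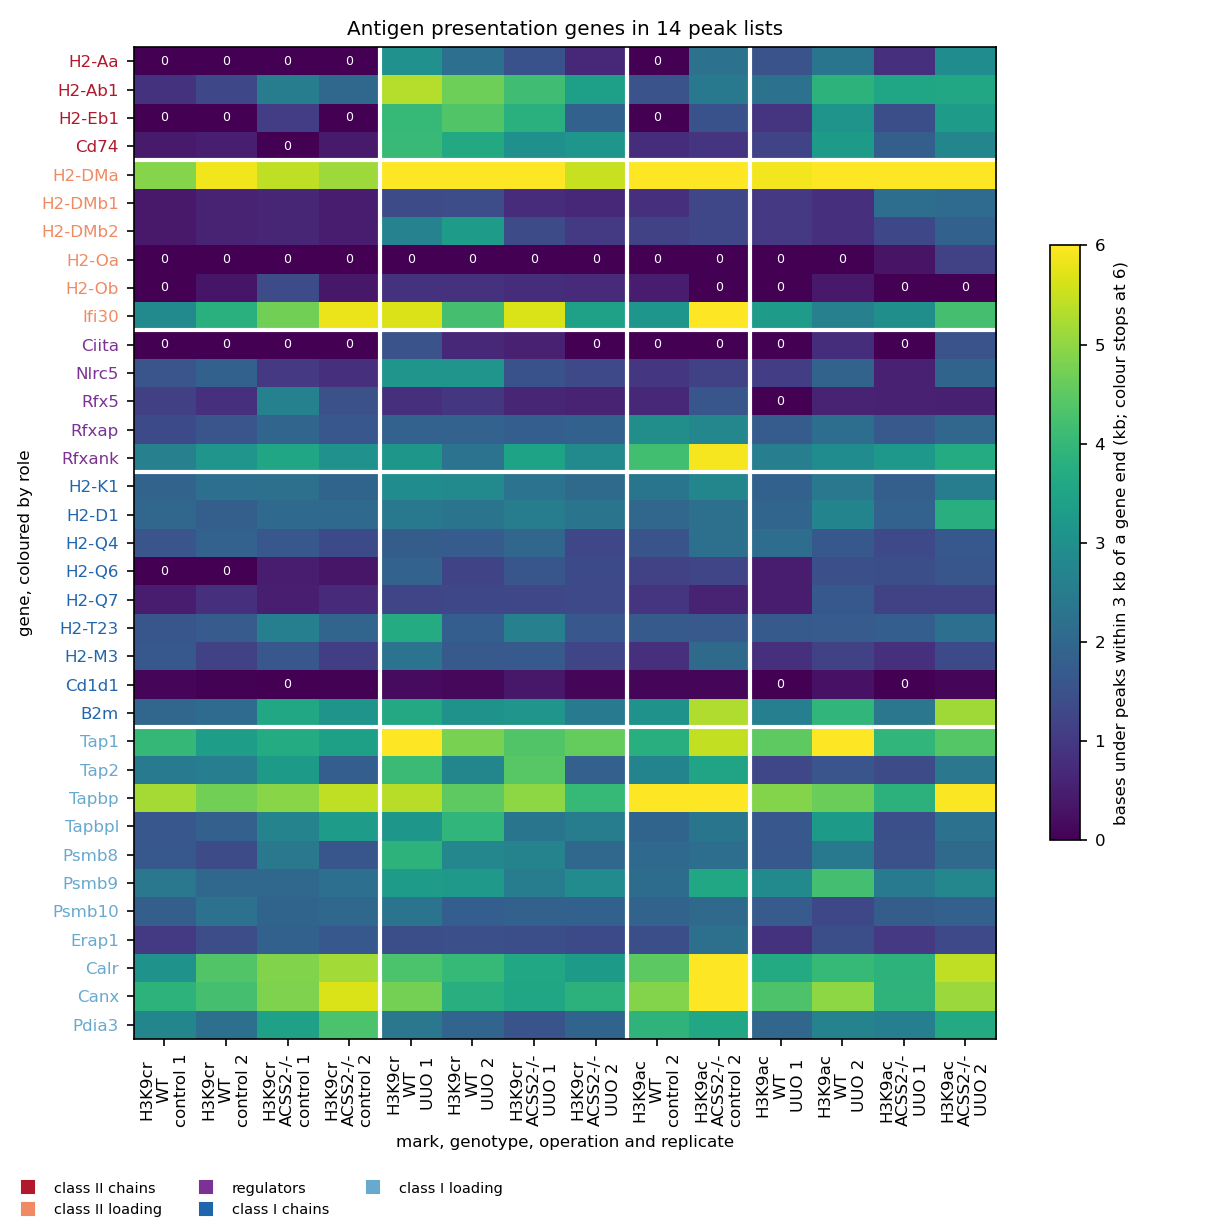
Bases under peaks (kb, colour scale) within 3 kb of either end of the 35 genes (rows, grouped by role) in each of the 14 libraries (columns, grouped by mark, operation and genotype). H2-Aa is at 0 in the 4 H3K9cr control libraries and H2-Ab1 is covered in all of them. Each of the 4 class II chains is lighter, with more bases under peaks, in the H3K9cr UUO libraries. The class I loading genes are covered in every library.

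The first comparison asked whether H3K9cr at these genes differed between UUO and control kidneys. The class II chains had far more H3K9cr in UUO kidneys. Summed over H2-Aa, H2-Ab1, H2-Eb1 and Cd74, 1.32 and 1.79 kb were covered in WT control and 3.62 and 2.44 kb in ACSS2-/- control libraries, against 16.4 and 14.9 kb in WT UUO and 12.5 and 9.06 kb in ACSS2-/- UUO libraries. Every UUO library lay above every control library, and this held for each of the 4 genes on its own.

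H2-Aa (chr17:34282744-34287823), the alpha chain of the class II molecule I-A, had no H3K9cr peak in the 4 control libraries, and 3028 and 2191 bp in WT UUO and 1501 and 672 bp in ACSS2-/- UUO libraries. It was the only one of the 35 genes with a peak in all 4 UUO and in no control library. H2-Ab1 (chr17:34263227-34269418), its beta chain, had 889 and 1292 bp in WT control, 2523 and 2012 bp in ACSS2-/- control, 5326 and 4687 bp in WT UUO and 4161 and 3376 bp in ACSS2-/- UUO libraries. The UUO mean was 2.61 times the control mean, a difference of 2708.5 bp. H2-Eb1 (chr17:34305867-34316674), the beta chain of I-E, was at 0 in 3 control libraries and at 1096 bp in ACSS2-/- control replicate 1. It had 4010 and 4364 bp in WT UUO and 3819 and 1867 bp in ACSS2-/- UUO libraries, 3241 bp more on average than in control kidneys. Cd74 (chr18:60803849-60812652), the invariant chain, had 431 and 503 bp in WT control, 0 and 428 bp in ACSS2-/- control, 4034 and 3634 bp in WT UUO and 3015 and 3148 bp in ACSS2-/- UUO libraries, a difference of 3117.2 bp. The lowest UUO value of Cd74 was several times its highest control value.

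**Figure D2:**
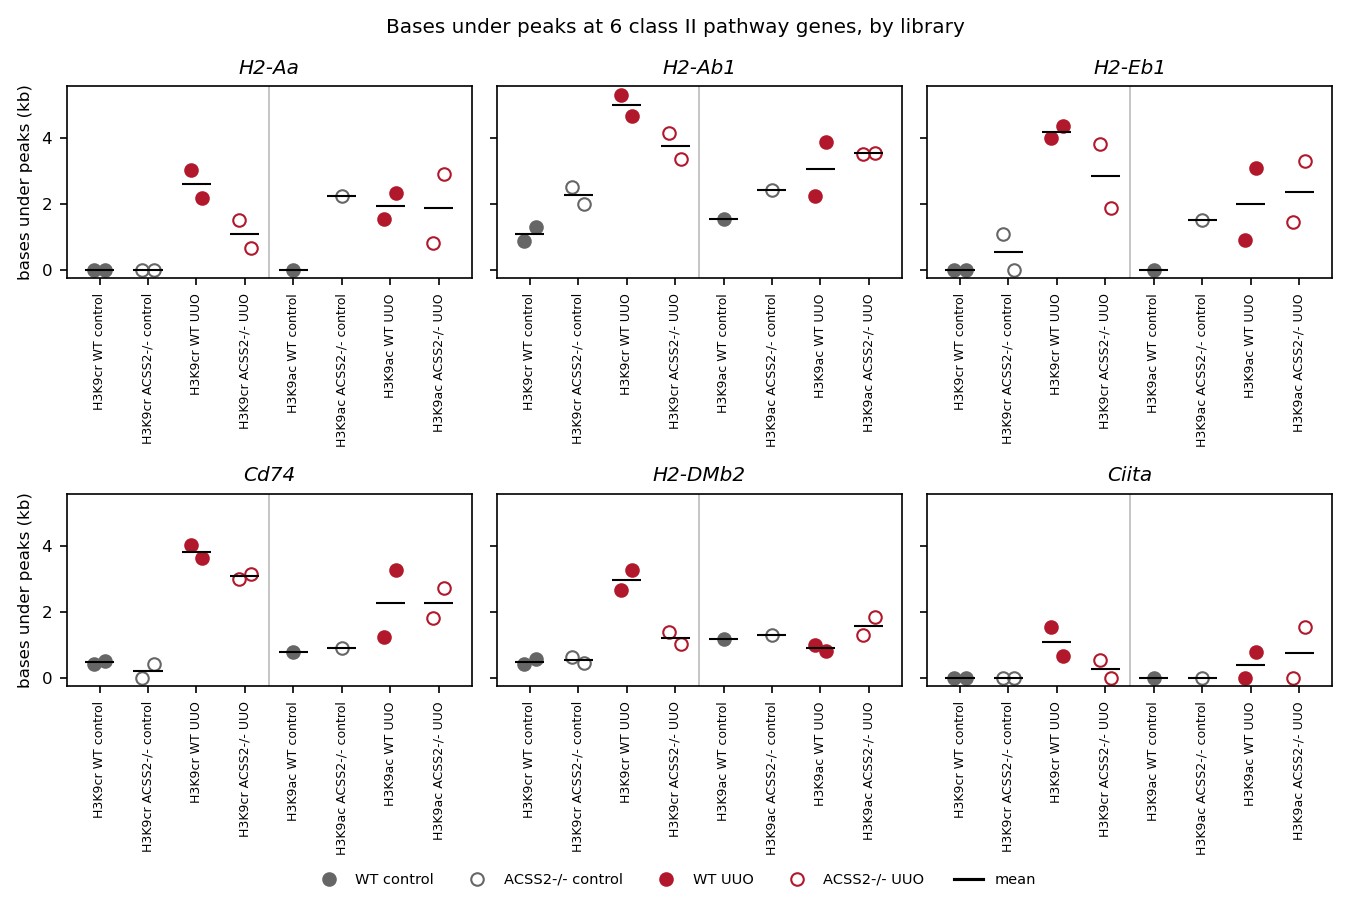
Bases under peaks (kb) at H2-Aa, H2-Ab1, H2-Eb1, Cd74, H2-DMb2 and Ciita, with 1 point per library (filled for WT, open for ACSS2-/-, red for UUO, grey for control) and the group mean as a bar. At the first 5 genes the 4 H3K9cr UUO points lie above the 4 H3K9cr control points, and the ACSS2-/- UUO mean lies below the WT UUO mean.

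Peak positions were mapped at H2-Aa and H2-Eb1, where the start site was covered in some UUO libraries. At H2-Aa, H3K9cr ran from -1024 to 2003 bp of the start in WT UUO replicate 1 and from -635 to 1555 bp in replicate 2, where negative positions lie upstream. In ACSS2-/- UUO libraries the peaks began inside the gene, at 113 and 756 bp after the start, and did not touch the promoter shown above. At H2-Eb1, a peak from -1585 to 1759 bp of the start was called in WT UUO replicate 1, and ACSS2-/- UUO replicate 2 had a shorter pair of peaks that left the start itself uncovered. A further peak about 3 to 5 kb inside H2-Eb1 was present in all 14 libraries and lay mostly beyond the 3 kb that were scored.

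**Figure D3:**
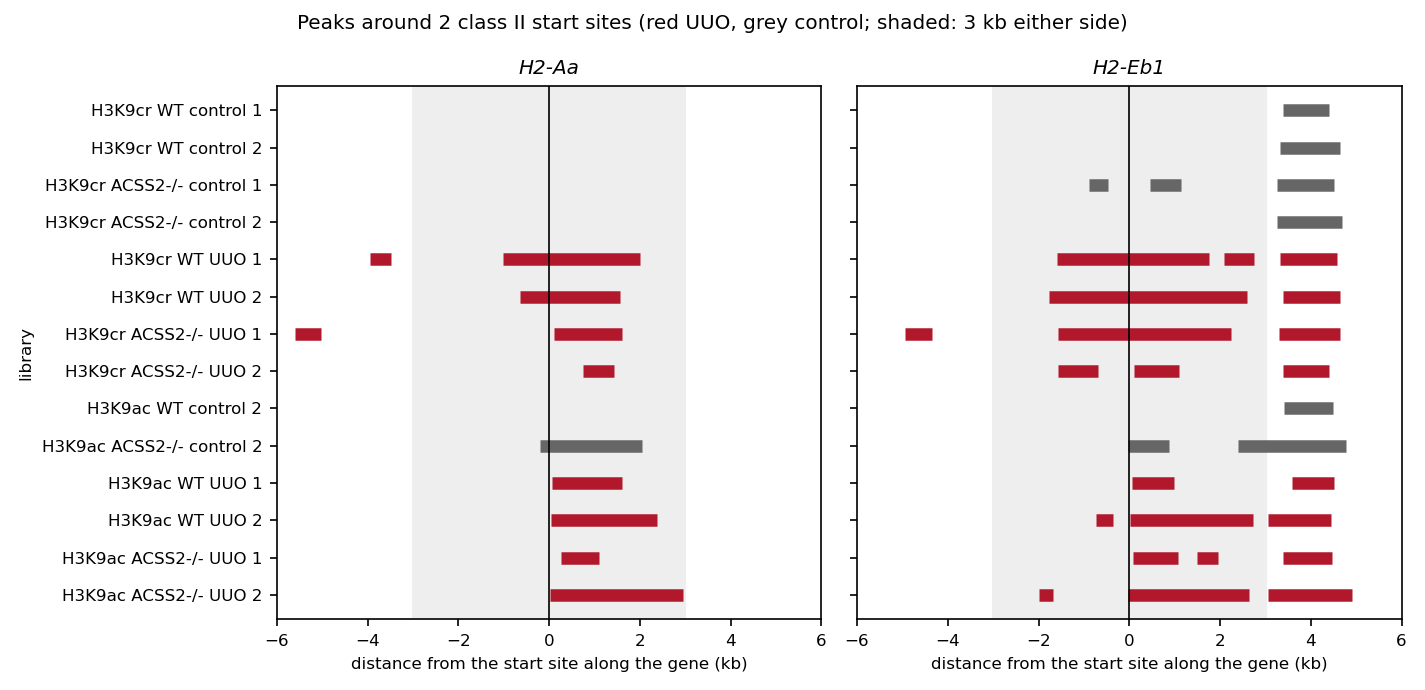
Peaks (bars) of each library within 6 kb of the start sites of H2-Aa and H2-Eb1, plotted as distance from the start along the gene (kb). H3K9cr peaks over the start are seen in both WT UUO libraries at each gene and in ACSS2-/- UUO replicate 1 at H2-Eb1, and the peak inside H2-Eb1 is seen in every library.

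The class II loading genes followed in part, with 2 of 6 higher. H2-DMb2 and H2-DMb1 are beta chains of DM, which exchanges the Cd74 fragment for peptide. H2-DMb2 had 405, 571, 640 and 460 bp in control libraries, 2661 and 3285 bp in WT UUO and 1392 and 1018 bp in ACSS2-/- UUO libraries, 4.03 times the control mean. H2-DMb1 had the same bases in control libraries, 1373 and 1429 bp in WT UUO and 761 and 661 bp in ACSS2-/- UUO libraries, 2.03 times the control mean, and its lowest UUO value of 661 bp stood just above its highest control value of 640 bp. H2-DMa, the alpha chain, overlapped between the groups over its whole window, with 875.5 bp more in UUO kidneys. The bases of the window outside Brd2 lie around the downstream end of H2-DMa and not around its start. There, in a split chosen after the values were seen, H2-DMa had 545, 0, 0 and 0 bp in control libraries. UUO libraries had 1435, 1250, 1315 and 757 bp, and the groups do not overlap. H2-Ob had 0 to 1402 bp in control and 743 to 869 bp in UUO libraries, and Ifi30, the lysosomal thiol reductase, overlapped as well.

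None of the 5 regulators separated the groups. Ciita (chr16:10480014-10531064) had no H3K9cr at its ends in the 4 control libraries, 1533 and 670 bp in WT UUO and 549 and 0 bp in ACSS2-/- UUO libraries. Its value rested on 3 of 4 UUO libraries. Ciita has several promoters inside the annotated gene, and there, more than 3 kb from either end, control libraries had 1611, 508, 1646 and 753 bp and UUO libraries 3101, 1124, 1088 and 1302 bp, which overlap. Nlrc5 (chr8:94434335-94527272) had 1591 and 1855 bp in WT control, 997 and 836 bp in ACSS2-/- control, 3122 and 3125 bp in WT UUO and 1515 and 1313 bp in ACSS2-/- UUO libraries. Its ACSS2-/- UUO values lay among the control values. Rfx5, Rfxap and Rfxank overlapped, and Rfx5 had 810 to 2630 bp in control against 582 to 939 bp in UUO libraries.

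Of the 9 class I chains, 3 were higher in UUO kidneys, H2-Q6, H2-Q7 and H2-D1. H2-Q6, a nonclassical class I gene, had 0 bp in both WT control and 483 and 354 bp in ACSS2-/- control libraries, against 1885 and 1242 bp in WT UUO and 1601 and 1337 bp in ACSS2-/- UUO libraries. H2-Q7, a nonclassical neighbour of like sequence, had 479 to 835 bp in control and 1262 to 1313 bp in UUO libraries, 2.04 times the control mean. H2-D1, a classical class I chain, had 1972, 1818, 2049 and 2053 bp in control and 2416, 2303, 2524 and 2313 bp in UUO libraries, 1.21 times the control mean. These 4 UUO values were close together and all above the control values. H2-K1, the other classical chain, had 1905, 2180, 2207 and 1930 bp in control, 2909 and 2839 bp in WT UUO and 2275 and 2071 bp in ACSS2-/- UUO libraries, so that 1 UUO value lay among the controls. B2m, the light chain of class I, had 1979, 2092, 3600 and 3098 bp in control and 3613, 3048, 3118 and 2474 bp in UUO libraries and overlapped. So did H2-Q4, H2-T23, H2-M3 and Cd1d1, a lipid-presenting chain that had at most 379 bp in these libraries.

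Among the 11 class I loading genes, 2 were higher and both lay in the Tap1 locus. Tap1 (chr17:34187556-34197225), a subunit of the peptide transporter, had 3995, 3331, 3686 and 3403 bp in control, 6172 and 4791 bp in WT UUO and 4362 and 4581 bp in ACSS2-/- UUO libraries. Psmb9 (chr17:34182030-34187330), an immunoproteasome subunit that shares its promoter with Tap1, had 2405, 2017, 2013 and 2189 bp in control, 3301 and 3232 bp in WT UUO and 2520 and 2883 bp in ACSS2-/- UUO libraries. The UUO mean of each was 1.38 times its control mean. Psmb8 had 1659, 1363, 2408 and 1617 bp in control, 3870 and 2772 bp in WT UUO and 2685 and 2030 bp in ACSS2-/- UUO libraries, so that only ACSS2-/- UUO replicate 2 fell below the highest control value. Tap2, the other subunit of the transporter, had 2460, 2559, 3260 and 1804 bp in control, 4079 and 2764 bp in WT UUO and 4431 and 1839 bp in ACSS2-/- UUO libraries and overlapped. Tapbp, Tapbpl, Psmb10, Erap1 and the endoplasmic reticulum chaperones Calr, Canx and Pdia3 overlapped too, and Pdia3 had a mean difference of -1210.8 bp between UUO and control.

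In all, 11 of the 34 genes with an H3K9cr peak in these libraries, in 9 loci, were higher in every UUO than in every control library, and 0 were lower. Over 23153 genes with a peak, 2.16% were higher and 12.5% lower by the same rule. The median difference was 462 bp over the 34 genes and -144.8 bp over all genes, and 26 of the 34 differences were positive against 32.7% of all. The H3K9cr UUO lists covered 44.6, 35, 39.7 and 29.4 Mb of the genome and the control lists 41.7, 44.8, 64.6 and 51.4 Mb. As a share of the covered bases of a library, 22 genes were higher and 0 lower, against 13.8% and 3.70% of all genes. The exact permutation test gave each of the 11 genes a two-sided p of 0.0286, the smallest that 4 against 4 libraries allow, and a Benjamini-Hochberg adjusted p of 0.195 over all genes. By this permutation test, 0 genes of the genome had an adjusted p under 0.05 and 3398 had an unadjusted p under 0.05.

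In bulk kidney, more cells of a type and more of the mark in each cell cannot be told apart. Markers of other cells moved with operation in the same H3K9cr libraries, where 2.16% of all genes were higher and 12.5% lower in UUO. Ptprc, the leukocyte marker CD45, had 0 bp in the 4 control and 0.938 to 2.26 kb in the UUO libraries. Of 8 macrophage markers 2 were higher in UUO (C1qa and Fcgr1), with a summed length of 4.47 to 16.4 kb against 1.69 to 3.73 kb in control, and Itgam was at 0 throughout. Of 7 dendritic cell markers 1 was higher (Itgax), with sums of 2.44 to 10.8 kb against 2.05 to 6.41 kb and Cd209a at 0, and of 7 T cell markers 1 was higher (Cd3d), with sums of 2.38 to 14.7 kb against 1.30 to 2.62 kb. Of 5 B cell markers 0 were higher, with sums of 2.67 to 3.96 kb against 2.59 to 2.97 kb, and Ms4a1 and Pax5 were at 0 in every library. Of 7 proximal tubule markers 6 were lower, with sums of 1.29 to 4.53 kb against 17 to 26.8 kb. Their part in the result at the antigen presentation genes was not tested.

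H3K9ac was then compared between the 4 UUO and the 2 control libraries. Cd74 was higher, with 783 bp in WT control, 905 bp in ACSS2-/- control, 1242 and 3279 bp in WT UUO and 1828 and 2743 bp in ACSS2-/- UUO libraries, 2.69 times the control mean. The other class II chains did not separate, because the ACSS2-/- control library already had H3K9ac there. H2-Aa had 0 bp in WT control and 2249 bp in ACSS2-/- control, against 1543 and 2333 bp in WT UUO and 823 and 2919 bp in ACSS2-/- UUO libraries. H2-Ab1 had 1530 and 2432 bp in the WT and ACSS2-/- control libraries, 2253 and 3885 bp in WT UUO and 3529 and 3566 bp in ACSS2-/- UUO libraries. H2-Eb1 had 0 and 1517 bp in control, 919 and 3097 bp in WT UUO and 1439 and 3321 bp in ACSS2-/- UUO libraries. At each of these 3 genes the WT control library was below all 4 UUO libraries and the ACSS2-/- control library was above at least 1 of them.

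H2-T23, a nonclassical class I chain, was the other gene higher in UUO, with 1703 and 1678 bp in control and 1709 to 2192 bp in UUO libraries, 1.10 times the control mean. Lower in UUO were 7 genes, 3 of them regulators. Rfxank had 4178 and 5924 bp in control, 2559 and 2920 bp in WT UUO and 3188 and 3689 bp in ACSS2-/- UUO libraries. Rfxap had 2961 and 2773 bp in control and 1679 to 2168 bp in UUO libraries, and Rfx5 had 693 and 1594 bp in control and 0 to 601 bp in UUO libraries. All 3 subunits of RFX thus had fewer covered bases within 3 kb of the gene ends in every UUO than in either control library. For Rfx5 these bases leave out its promoter entry (chr3:94953858-94954157). That entry had 300 covered bases in both control libraries, 28 and 300 in WT UUO and 0 and 300 in ACSS2-/- UUO libraries. As a share of the covered bases of a library all 3 subunits overlapped, with a higher mean in UUO kidneys at Rfxap and Rfxank. Of the loading genes, Tapbp, which bridges class I to Tap, had 6299 and 7465 bp in control and 3854 to 5970 bp in UUO libraries, 0.703 times the control mean. Tap2 had 2705 and 3497 bp in control, 1278 and 1573 bp in WT UUO and 1376 and 2380 bp in ACSS2-/- UUO libraries, 0.533 times the control mean. Erap1, the peptide-trimming protease, and Psmb10 stood at 0.636 and 0.833 times. As such a share Tapbp and Psmb10 were higher in every UUO than in either control library. Erap1 and Tap2 overlapped, Erap1 with a higher mean in UUO kidneys.

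The named class I genes and their regulator overlapped in H3K9ac. H2-K1 had 2341 and 2744 bp in control and 1821 to 2546 bp in UUO libraries, H2-D1 had 1972 and 2212 bp against 1882 to 3750 bp, and B2m had 3093 and 5274 bp against 2376 to 5134 bp. Tap1 had 3751 and 5449 bp in control and 3938 to 6648 bp in UUO libraries, Psmb8 had 2047 and 2176 bp against 1484 to 2431 bp, and Psmb9 had 2128 and 3597 bp against 2454 to 4218 bp. Nlrc5 had 938 and 1192 bp against 550 to 1931 bp. Ciita was at 0 in both control and in 2 UUO libraries, with 786 bp in WT UUO replicate 2 and 1533 bp in ACSS2-/- UUO replicate 2.

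With H3K9ac, 2 of 35 genes were thus higher and 7 lower, against 0.355% and 43.2% of the 20537 genes with a peak. The median difference was -142 bp over the 35 genes and -622 bp over all genes. The direction of the calls turned with the scale. H3K9ac UUO lists covered less of the genome than the control lists, and as a share of the covered bases 23 of the genes were higher and 0 lower, against 25.5% and 7.91% of all genes. No p was below 0.0667, the smallest that a two-sided exact permutation test of 4 against 2 allows, so 0 genes had an unadjusted p under 0.05 and 0 an adjusted one. Cd74 had an exact p of 0.133. In these libraries, 2 of 8 macrophage markers were higher (C1qa and Fcgr1), with sums of 3.92 to 16.3 kb against 3.72 to 5.54 kb, and 6 of 7 proximal tubule markers were lower, with sums of 2.47 to 7.66 kb against 18.8 to 23.1 kb. All 5 endothelial markers were lower as well, and the part of these markers in the result was not tested.

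**Figure D4:**
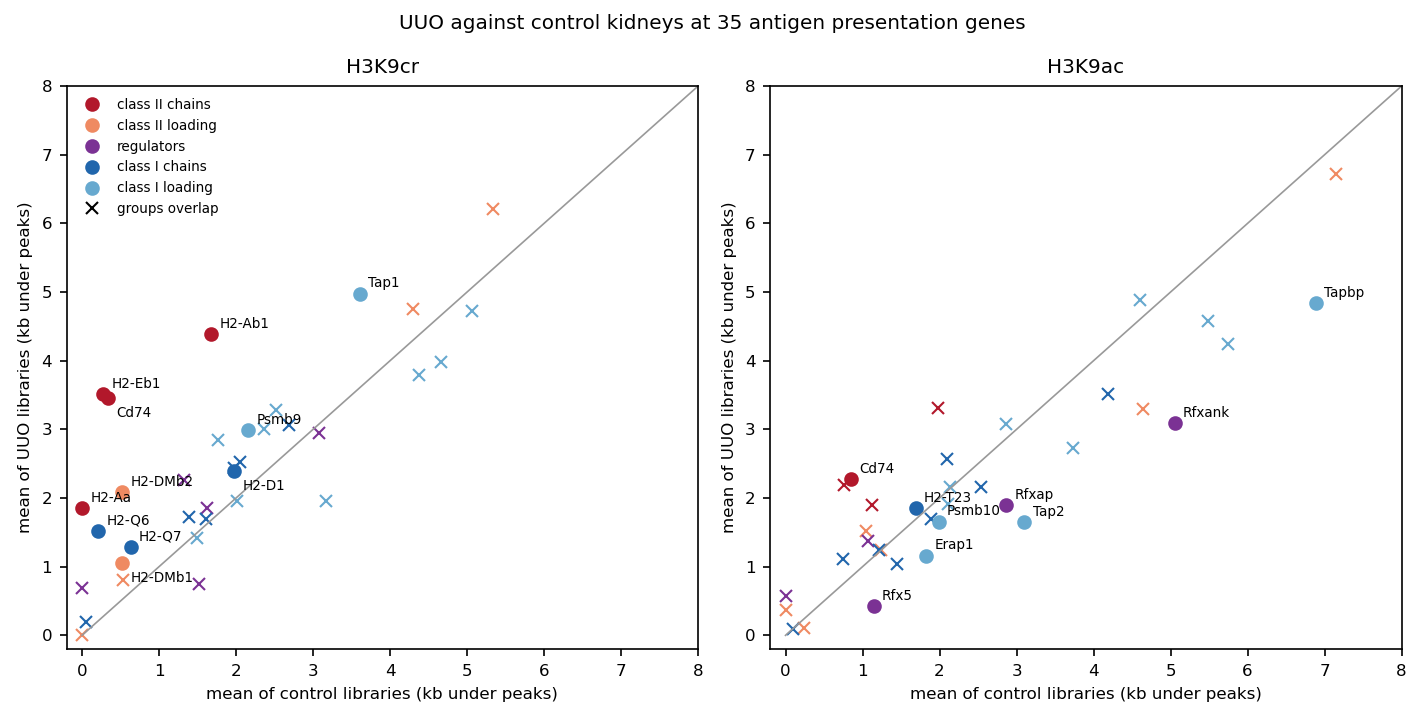
Mean bases under peaks (kb) of the UUO libraries (y axis) against the control libraries (x axis) for each of the 35 genes, coloured by role, for H3K9cr (left) and H3K9ac (right). Filled circles mark genes whose groups do not overlap, crosses those that overlap and the line equality. The class II chains lie above the line for both marks, and 7 filled points lie below it for H3K9ac, 5 of which have a higher mean in UUO as a share of covered bases.

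The H3K9cr difference between UUO and control kidneys was also taken within each genotype. In WT kidneys, 26 genes were higher in both UUO than in both control libraries and 0 lower, against 22.3% and 23.7% of all genes. In ACSS2-/- kidneys, 14 were higher and 7 lower, against 5.06% and 47.5% of all genes. The 7 lower were Rfx5, Tapbpl, Psmb10, Erap1, Calr, Canx and Pdia3, which are loading genes apart from Rfx5. As a share of covered bases, the ACSS2-/- UUO mean lay above the ACSS2-/- control mean at Tapbpl, Psmb10, Erap1, Calr and Canx. It lay below at Rfx5 and Pdia3. The median difference over the listed genes was 912 bp in WT (-3 bp over all genes) and 142.5 bp in ACSS2-/- kidneys (-336.5 bp over all genes).

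At the class II chains the difference was positive in both genotypes and smaller in ACSS2-/- kidneys. For H2-Ab1 it was 3916 bp in WT and 1501 bp in ACSS2-/- kidneys, for H2-Eb1 4187 and 2295 bp, for H2-Aa 2609.5 and 1086.5 bp and for Cd74 3367 and 2867.5 bp. Nlrc5 differed by 1400.5 and 497.5 bp and H2-DMb2 by 2485 and 655 bp. H2-Q7 differed by 629.5 and 688 bp, with the larger value in ACSS2-/- kidneys. B2m differed by 1295 bp in WT and by -553 bp in ACSS2-/- kidneys, and Calr by 434 and -1590 bp. As a share of covered bases neither changed direction in ACSS2-/- kidneys, where both had a higher mean in UUO. B2m had 55.8 and 60.3 bp per Mb of covered bases in ACSS2-/- control and 78.6 and 84 in ACSS2-/- UUO libraries.

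The difference of these differences, ACSS2-/- minus WT, was tested by an exact permutation of genotypes within operation, which has 36 arrangements and a smallest two-sided p of 0.0556. It was below 0 at that p for 7 genes, each in a locus of its own, and above 0 for 0 genes, against 8.19% and 0.346% of all genes. The 7 were H2-Ab1 (-2415 bp), Tapbpl (-2373.5 bp), Calr (-2024 bp), Pdia3 (-1815.5 bp), Rfx5 (-1364.5 bp), H2-Ob (-821.5 bp) and Rfxap (-384 bp). For H2-Eb1 it was -1892 bp (exact permutation p = 0.167), for H2-DMb2 -1830 bp (exact permutation p = 0.111), for H2-Aa -1523 bp (exact permutation p = 0.333) and for Cd74 -499.5 bp (exact permutation p = 0.444). The median was -786.8 bp over the listed genes and -337.5 bp over all genes, and the smallest adjusted p of the permutation test in the genome was 0.651. The higher ACSS2-/- control values enter this difference as well as the lower ACSS2-/- UUO values.

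The next comparison set ACSS2-/- against WT among UUO kidneys. H3K9cr was lower in both ACSS2-/- than in both WT libraries at 20 of 34 genes, in 16 loci, and higher at 0. Over 21400 genes with a peak, 24.2% were lower and 7.77% higher. The 20 genes included the 4 class II chains, 4 of the 6 class II loading genes, 4 of the 5 regulators, 2 of the 9 class I chains and 6 of the 11 class I loading genes. The median difference was -534.5 bp over the 34 genes and -127.5 bp over all genes, and 30 of the 34 differences were negative.

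Nlrc5 had replicates close together and far from the other genotype, with 3123.5 ± 2.12 bp in WT UUO and 1414 ± 142.8 bp in ACSS2-/- UUO kidneys (SD, n = 2 each), a ratio of 0.453. H2-DMb2 had 2973 ± 441.2 bp and 1205 ± 264.5 bp (SD, n = 2 each), a ratio of 0.405, and H2-Aa 2609.5 ± 591.8 bp and 1086.5 ± 586.2 bp (SD, n = 2 each), a ratio of 0.416. Ciita had 1101.5 ± 610.2 bp and 274.5 ± 388.2 bp (SD, n = 2 each), where 1 ACSS2-/- library was at 0. The 670 bp of the lower WT library stood close to the 549 bp of the higher ACSS2-/- one. H2-Eb1 was 0.679 times, H2-Ab1 0.753 times and Cd74 0.804 times the WT value, and the lowest WT and highest ACSS2-/- values of H2-Eb1, 4010 and 3819 bp, were also close. At H2-DMb1, 1373 and 1429 bp in WT stood against 761 and 661 bp in ACSS2-/- libraries, a ratio of 0.507.

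Among the class I loading genes, Tap1 was 0.816 times, Psmb8 0.710 times and Tapbpl 0.685 times the WT value, and the differences of Psmb9 and Calr were -565 and -739.5 bp. Nearly all of the H3K9cr of Tapbpl, a Tapbp homologue, lay at the gene end that it shares with Cd27, a T and B cell receptor, where the difference was -970 bp. H2-K1 was lower too (-701 bp), whereas H2-D1, H2-Q6, H2-Q7 and B2m overlapped. Tap2 overlapped with 4079 and 2764 bp in WT and 4431 and 1839 bp in ACSS2-/- libraries. At H2-DMa the call rested on Brd2, since outside Brd2 the groups overlapped (-306.5 bp) and inside it they did not (-409 bp). The remaining lower genes were H2-M3 (-525 bp), Pdia3 (-427.5 bp), Rfx5 (-276.5 bp), H2-Ob (-97.5 bp) and Rfxap (-52 bp). Rfxank was the one regulator that was not lower.

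The ACSS2-/- UUO lists covered 39.7 and 29.4 Mb of the genome and the WT UUO lists 44.6 and 35 Mb. As a share of covered bases, 8 genes were lower and 1 higher, against 11.9% and 17.7% of all genes. The 8 were H2-DMb2, Nlrc5, H2-Aa, H2-Ab1, Psmb8, Ciita, H2-DMb1 and H2-M3, and the 1 higher was Rfxank. H2-Eb1 and Cd74 overlapped on that scale, and the means of H2-DMa, H2-Ob and Rfxap changed direction. With 2 against 2 libraries a two-sided exact permutation p cannot go below 0.333, and the smallest adjusted p in the genome was 1, so no gene passed a test.

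T cell markers moved with genotype in the same libraries. By the same rule 24.2% of all genes were lower and 7.77% higher in ACSS2-/- libraries. Of 7 T cell markers 6 were lower in ACSS2-/- UUO H3K9cr libraries (Cd3e, Cd3d, Cd3g, Cd4, Lck and Cd2), with summed lengths of 2.38 to 2.62 kb against 11.5 to 14.7 kb in WT UUO, and T cell sums of control libraries were 1.30 to 2.62 kb. Macrophage markers summed to 4.47 to 13.2 kb against 12 to 16.4 kb, with 2 of 8 lower (Cd68 and Lyz2). Dendritic cell markers summed to 2.44 to 6.83 kb against 6.27 to 10.8 kb, with 2 of 7 lower (Itgax and Xcr1), and the B cell marker Cd79a was lower, while Ms4a1 and Pax5 were at 0. The macrophage and dendritic cell counts were near the share of all genes that were lower. Ptprc overlapped, with 0.938 to 1.92 kb against 1.74 to 2.26 kb. Proximal tubule markers were higher at 3 of 7 and lower at 1, with sums of 3.85 to 4.53 kb against 1.29 to 3.60 kb. Their part in the result was not tested.

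H3K9ac in UUO kidneys overlapped between the genotypes at the class II chains. H2-Ab1 differed by 478.5 bp, H2-Eb1 by 372 bp, Cd74 by 25 bp and H2-Aa by -67 bp between ACSS2-/- and WT libraries. Of the 35 genes 7 were higher in ACSS2-/- libraries, in 5 loci, and 2 lower, in 1 locus, against 27.8% and 2.70% of 18455 genes. The lower ones were Tap1, with 4510 and 6648 bp in WT and 3938 and 4420 bp in ACSS2-/- libraries, and Psmb9, with 2863 and 4218 bp in WT and 2454 and 2777 bp in ACSS2-/- libraries. Both belong to the locus whose H3K9cr was lower as well.

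The 7 genes with more H3K9ac in ACSS2-/- UUO kidneys included the 3 genes of DM. H2-DMb1 had 997 and 807 bp in WT and 2165 and 2102 bp in ACSS2-/- libraries, 2.37 times, and H2-DMb2 had 997 and 807 bp and 1292 and 1856 bp, 1.75 times. H2-DMa had 1044.5 bp more over its whole window, of which 967 bp lay outside Brd2, but a lower mean as a share of covered bases. H2-Oa was at 0 in both WT libraries, and Rfxank, Psmb10 and H2-T23 differed by 699, 292.5 and 277 bp. As a share of covered bases the split of calls turned, with 3 genes higher (H2-DMb1, H2-DMb2 and H2-Oa) and 10 lower, against 11.7% and 18.5% of all genes. The median difference was 240.5 bp over the listed genes and 242.5 bp over all genes. T cell markers overlapped, at 3.11 to 5.88 kb in ACSS2-/- against 0.406 to 11.2 kb in WT libraries, and the smallest exact permutation p was again 0.333.

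The genotype difference in UUO kidneys was compared between the marks by an exact permutation of genotypes within mark, a test added after the data were seen. It takes no account of animals shared between the marks. The H3K9cr difference was below the H3K9ac difference, at the smallest two-sided p of 0.0556, for H2-DMb2 (-2440 bp), H2-DMb1 (-1921.5 bp) and H2-DMa (-1760 bp), which form 1 locus. No listed gene lay above 0 at that p, and the shares of all genes were 4.70% below and 0.0684% above. The median was -704.5 bp over the 35 genes and -324 bp over all genes, and the smallest adjusted p of the permutation test was 0.972.

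**Figure D5:**
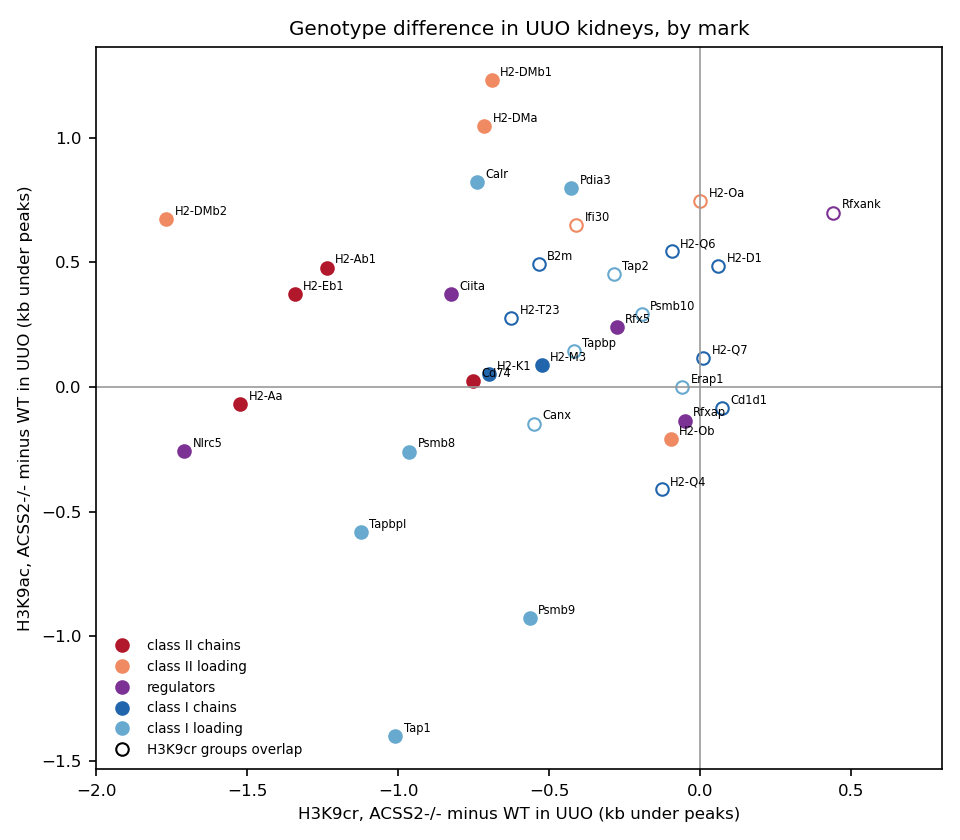
Difference in mean bases under peaks (kb) between ACSS2-/- and WT UUO kidneys for H3K9ac (y axis) against H3K9cr (x axis), 1 point per gene coloured by role, filled where the H3K9cr groups do not overlap. Most points lie left of 0, the DM genes in the upper left and Tap1 and Psmb9 in the lower left.

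The genotypes were also compared among control kidneys. H3K9cr was higher in both ACSS2-/- than in both WT control libraries at 14 genes and lower at 2, against 37.5% and 4.87% of 21259 genes. The median difference was 156 bp over the 32 genes with a peak and 248.5 bp over all genes. Of the class II chains H2-Ab1 was higher, at 2.08 times the WT value, and H2-Aa was at 0 in all 4 libraries. The larger differences were at Ifi30, with 2852 and 3801 bp in WT and 4728 and 5826 bp in ACSS2-/- libraries, and at the chaperones Pdia3 (1388 bp), Calr (1284.5 bp) and Canx (1196 bp). B2m had 1979 and 2092 bp in WT and 3600 and 3098 bp in ACSS2-/- libraries, and Tapbpl differed by 1248.5 bp. Rfx5, H2-Ob, H2-T23, Erap1, H2-Q6, Rfxap and H2-D1 were higher by 156 to 1088 bp. On the scale of the share of covered bases, the means of Canx, Rfxap and H2-D1 were lower in ACSS2-/- kidneys. The 2 lower genes were Nlrc5, at 0.532 times the WT value, and Cd74, which differed by -253 bp.

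Nlrc5 was thus lower in ACSS2-/- than in WT kidneys in both operations, in libraries that do not overlap in either. ACSS2-/- control lists covered 64.6 and 51.4 Mb, against 41.7 and 44.8 Mb in WT. As a share of covered bases 5 genes were higher and 15 lower, against 9.17% and 33.8% of all genes, and Nlrc5 and Cd74 were lower on that scale too. In these libraries 3 of 7 dendritic cell markers were higher in ACSS2-/- (Xcr1, Clec9a and Batf3), beside 37.5% of all genes. Their sums were 4.51 to 6.41 kb against 2.05 to 2.96 kb, and Ptprc was at 0. Markers of other cells were also higher, namely Cd68 (macrophage), Lck (T cell), Cubn and Slc34a1 (proximal tubule) and Egfl7 (endothelial). Aqp2 (distal nephron) and Pdgfrb (stroma) were lower. The part of these markers was not tested, and the smallest exact permutation p was 0.333. For H3K9ac, with 1 library a genotype and no test, the ACSS2-/- control value was above the WT value at 26 genes and below it at 7, against 84.5% and 15.3% of all genes.

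The marks were compared with each other in UUO kidneys. The test treats the libraries of both marks as independent, although they can share animals. H3K9cr exceeded H3K9ac in all 4 against all 4 libraries at 1 gene, H2-Ob, the beta chain of DO, and was below it at 0, against 12% and 1.44% of 21933 genes. H2-Ob had 869, 852, 783 and 743 bp of H3K9cr and 0, 416, 0 and 0 bp of H3K9ac, a two-sided exact permutation p of 0.0286 and an adjusted p of 0.213. By the same permutation test 0 genes of the genome had an adjusted p under 0.05 and 2945 an unadjusted one. The median difference was 173.8 bp over the 35 genes and 208.8 bp over all genes. The H3K9ac UUO lists covered 17.7, 21.2, 19.3 and 30.9 Mb against 29.4 to 44.6 Mb for H3K9cr, and as a share of covered bases 0 genes were higher and 11 lower, against 4.73% and 28.6% of all genes.

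Within WT UUO kidneys 16 genes were higher in H3K9cr and 0 lower, against 53.8% and 4.17% of all genes. Within ACSS2-/- UUO kidneys 7 were higher and 6 lower, against 20.1% and 14% of all genes. H2-Ab1 had 5326 and 4687 bp of H3K9cr and 2253 and 3885 bp of H3K9ac in WT UUO kidneys, which do not overlap. In ACSS2-/- UUO kidneys it had 4161 and 3376 bp of H3K9cr and 3529 and 3566 bp of H3K9ac, which overlap.

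A further 49 genes of the pathway, from proteasome subunits and endosomal proteases to costimulatory molecules, were scored alongside. Beside 2.16% and 12.5% of all genes, 1 was higher and 3 lower in UUO with H3K9cr, with a median difference of 0 bp. The 1 higher was H2-Q10, a class I-like gene with 0 bp in control and a mean of 573.2 bp in UUO kidneys. Unc93b1, a chaperone of endosomal receptors, had a mean difference of -2600 bp, the protease Sppl2a, which cleaves the Cd74 remnant, one of -1927.2 bp, and the proteasome subunit Psmb6 one of -403.5 bp. With H3K9ac 1 was higher and 12 lower, beside 0.355% and 43.2% of all genes. For H3K9cr in UUO kidneys 3 were higher and 13 lower in ACSS2-/- than in WT libraries, beside 7.77% and 24.2% of all genes. The median over the 49 genes was -301.5 bp. The costimulatory ligand Cd86 had 1637 and 1193 bp in WT and 332 and 0 bp in ACSS2-/- libraries, and the interferon regulatory factor Irf2 had a mean difference of -896.5 bp. Both genes were lower in both ACSS2-/- libraries.

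With H3K9ac the same 49 genes gave 12 higher and 4 lower in ACSS2-/- UUO kidneys, beside 27.8% and 2.70% of all genes, and the protease Ctsl had 1092.5 bp more. In control kidneys 16 were higher and 5 lower with H3K9cr, beside 37.5% and 4.87% of all genes, and the protease Ctsd had 2121 bp more. Between the marks in UUO kidneys 3 were higher and 1 lower in H3K9cr, beside 12% and 1.44% of all genes, among the former H2-T24 with a mean of 4748.8 bp of H3K9cr and 2129.8 bp of H3K9ac.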

How the data were processed

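ChIP-seq peak lists of H3K9cr and H3K9ac from mouse kidney were analysed, 1 list for each of 14 libraries. According to the methods, the authors dropped reads that held adapter, undetermined bases or low quality, mapped the others with Bowtie2, filtered out duplicates, organelle reads and reads of low mapping quality, and called peaks with MACS2. The submitters' processing notes name mm10 as the build, while the versions of the tools, and which control MACS2 was run with, are not given in the sources used here. The deposited lists hold the positions of peaks as coordinates with no score in the score column, and no signal, fold, q-value or depth, so read depth is unknown and no counting interval was computed. The labels give each antibody a different number in each group.

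Bases under peaks were summed within 3 kb of either end of each RefSeq GRCm38.p6 gene, with genes as the features and libraries as the replicates. A gene was called higher or lower where every library of one group lay beyond every library of the other. Differences of means were tested by two-sided exact permutation over libraries, with Benjamini-Hochberg adjustment over all genes with a peak in the libraries compared. The members and lists were chosen with earlier results of these data known. Genes named with a value in every library were 13 fixed class II, class I and regulator genes and up to 5 further genes per comparison with the largest difference among those called, plus up to 3 other pathway genes. Other names were chosen once the values were known. The settings varied were a 1 kb window, the whole gene, share of covered bases, equal numbers of peaks, presence of a peak, pairs by number and leaving out each library. Windows were checked against bedtools 2.31.1, and 0 of 99878 differed. Python 3.11.15, numpy 2.4.6, pandas 2.3.3 and matplotlib 3.10.9 were used. Input and RNA-seq libraries were not analysed here. Values of some marker and pathway genes are not reported here.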

Additional observations from a re-analysis of the deposited data

Results flagged for a closer look

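The DM genes H2-DMa, H2-DMb1 and H2-DMb2, which form 1 locus, stood out because the genotype difference in UUO kidneys ran in opposite directions for the marks. ACSS2-/- minus WT was -715.5 bp for H3K9cr and 1044.5 bp for H3K9ac at H2-DMa, -690 and 1231.5 bp at H2-DMb1, and -1768 and 672 bp at H2-DMb2. Both ACSS2-/- libraries lay on the same side of both WT libraries for each mark. The opposite directions held as a share of covered bases at H2-DMb1 and H2-DMb2, while at H2-DMa both marks changed theirs. The difference between the marks had a two-sided exact permutation p of 0.0556 at each of the 3 genes, the smallest possible, and an adjusted p no lower than 0.972.

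Tapbpl and Erap1 stood out because the H3K9cr difference in covered bases between UUO and control ran in opposite directions in the genotypes. At Tapbpl it was 1827.5 bp in WT and -546 bp in ACSS2-/- kidneys, with a two-sided exact permutation p of 0.0556 for the difference between genotypes. At Erap1 it was 223.5 bp in WT and -359.5 bp in ACSS2-/- kidneys, with an exact permutation p of 0.111. Neither passed the adjustment over all genes. The opposite directions did not hold as a share of covered bases, where both genes had a higher mean in UUO kidneys of either genotype. In ACSS2-/- libraries Erap1 had 28.7 and 32 bp per Mb of covered bases in control and 36.1 and 45.8 in UUO. Tapbpl had 41.6 and 64.1 in ACSS2-/- control and 59 and 86.5 in ACSS2-/- UUO libraries.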

How the results depend on the processing

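The lists carry no depth or height, so a base not under a peak may be below the threshold rather than unmarked, and with 2 libraries a group no test could pass its threshold. Shares of all genes are given above for the share of covered bases and for single genotypes, and not for the other settings below. Counts under those settings therefore cannot be read as particular to these genes. The 11 genes with more H3K9cr in UUO had the same direction at 1 kb, over the whole gene, as a share, with the longest peaks, in pairs, within either genotype, in libraries with a Y peak and without each library, with 3 overlapping at 1 kb and 3 with the longest peaks. Of the 9 genes that differed in UUO H3K9ac, 5 changed direction as a share of covered bases and 1 at 1 kb. In the genotype comparisons 3 each did so as a share, and at 1 kb 2 in UUO H3K9ac, 1 in UUO H3K9cr and 1 in control H3K9cr. The causes were not tested. As a share of covered bases, the counts higher and lower were 22 and 0 for UUO H3K9cr, 23 and 0 for UUO H3K9ac, 1 and 8 for ACSS2-/- UUO H3K9cr, 3 and 10 for ACSS2-/- UUO H3K9ac, 5 and 15 for ACSS2-/- control H3K9cr, and 0 and 11 for H3K9cr against H3K9ac. Where presence in all libraries against none was required, 1 was higher in UUO H3K9cr, 1 in ACSS2-/- UUO H3K9ac and 1 in ACSS2-/- control, and 0 elsewhere. With a 1 kb window there was 1 higher in UUO H3K9ac, 13 lower in ACSS2-/- UUO H3K9cr, 2 higher in ACSS2-/- UUO H3K9ac, 1 lower in ACSS2-/- control and 4 higher in H3K9cr against H3K9ac. With the 15988 longest peaks of every library, 8 were higher and 1 lower in ACSS2-/- control, and 0 higher and 1 lower in H3K9cr against H3K9ac. At start sites alone, chosen after seeing the data, there were 1 higher and 3 lower in UUO H3K9ac, 12 lower in ACSS2-/- UUO H3K9cr, 9 higher and 0 lower in ACSS2-/- control, and 1 lower in H3K9cr against H3K9ac. The genotype difference of the UUO effect held for 4 genes with 1 kb, 1 as a share, 4 with the longest peaks and 3 at start sites, against 7.

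Between libraries of one label number, correlations of deviations ran from -0.313 to 0.205 over 7 pairs. The -0.313 was between the marks in ACSS2-/- UUO kidneys. There H3K9cr replicate 1 and H3K9ac replicate 2 carry mouse number 3 in their peak names, and H3K9cr replicate 2 and H3K9ac replicate 1 number 2. Pairs by label thus join different mouse numbers in that group. Fits with a replicate block by label number gave 18 higher and 1 lower in UUO H3K9cr, 12 higher in UUO H3K9ac and 3 higher in ACSS2-/- UUO H3K9cr. They gave 13 higher and 5 lower in ACSS2-/- UUO H3K9ac and 6 higher in H3K9cr against H3K9ac. Leaving out each library gave 11 to 17 higher and 0 to 2 lower in UUO H3K9cr, the 17 without ACSS2-/- UUO replicate 2 and the 2 lower without either WT UUO replicate 1 or WT control replicate 2. It gave 2 to 8 higher and 7 to 14 lower in UUO H3K9ac, where the 8 came without the ACSS2-/- and the 14 without the WT control library, with 5 higher without WT UUO replicate 1. It gave 1 to 5 higher in ACSS2-/- UUO H3K9cr (5 without ACSS2-/- replicate 2), 7 to 22 higher and 2 to 13 lower in ACSS2-/- UUO H3K9ac (22 higher without ACSS2-/- replicate 1 and 18 without WT replicate 2, 13 lower without ACSS2-/- replicate 2 and 12 without WT replicate 1), 4 to 6 lower in ACSS2-/- control, whichever library was left out, and 1 to 7 higher and 0 to 2 lower in H3K9cr against H3K9ac (7 higher without ACSS2-/- H3K9cr replicate 2). WT libraries alone gave 26 higher in UUO H3K9cr and 16 in H3K9cr against H3K9ac, and ACSS2-/- libraries alone 7 lower, and 7 higher and 6 lower. Chosen after seeing the data, libraries with a Y peak alone gave 19 higher and 1 lower in UUO H3K9cr, libraries without one 13 lower in ACSS2-/- UUO H3K9ac, and pairs by the mouse number in peak names 11 higher and 5 lower in H3K9cr against H3K9ac.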
